A study of Mus musculus with 4 samples.

Results

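The genes described here are 51 genes of G2 and mitosis, taken from a fixed list of symbols. The list was chosen with earlier results of these data known. All 51 were among the 21937 features of the count matrices. They were followed in 4 single-cell libraries of the mouse telencephalic midline, built with a 10x Chromium kit (3', v3.1). In this method each captured transcript is read near its 3' end and counted once through a unique molecular identifier (UMI). The tissue was dissected from both hemispheres and held the cortical hem, a source of Wnt and BMP signals beside the cortex, together with its neighbours in the hippocampal primordium and Cajal-Retzius cells. The embryos were male and were pooled, 5 for each library of embryonic stage E11.5 and 3 for each of stage E14.5. All groups carried Lmx1aCre, which drives Cre recombinase where Lmx1a is active, and the Ai9 reporter, which makes tdTomato after recombination. The control libraries were Lmx1aCre::Ai9, and the other libraries, called gof here, added the allele that the labels write as b-cat gof. Each age and genotype was 1 library, so no value has a replicate check. Intervals given below cover counting error only, no p-value was computed, and differences describe these libraries and not the genotypes.

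Cells duplicate their DNA in S phase, pass through G2 and divide in mitosis. Entry into mitosis is driven by the kinase Cdk1 with its cyclin B partners, and exit by the anaphase-promoting complex, a ubiquitin ligase that marks cyclins and other proteins for destruction. Transcripts of this programme build up in G2 and mitosis, and most are low in neurons, which have left the cell cycle. In the embryonic cortex, radial progenitors divide at the ventricle, and Eomes-expressing intermediate progenitors divide once or a few times more before they give rise to neurons.

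Promoters of late cell cycle genes are known to hold CCAAT boxes, bound by NF-Y, and a cell cycle homology region (CHR) near the start site, bound by complexes that hold them shut in quiescent cells and open them in G2. RefSeq promoter windows (GRCm38.p6, 250 bases before to 50 after the start) were matched for 45 of the 51 genes, in 50 windows. Smc4, Aurkb, Dlgap5, Tpx2, Cdca2 and Cdc25c had none. CCAAT was found on either strand in 38 of the 50 windows (76%), against 37.4% of all 32851 windows of the table. The CHR hexamer TTTGAA was in 33 (66%) against 17.9%, and its variant TTCGAA in 5 (10%) against 1.56%. Both a CCAAT and either CHR hexamer were in 31 windows (62%) against 7.52%. These matches describe letters and are not binding sites.

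The 120 bases before the start of 8 genes are printed because these genes carry the results below: Cdk1, its partners Ccnb2 and Cks2, the abundant Hmgb2 and Top2a, the mitotic exit genes Ube2c and Cdc20, and G2e3, which differed from the others in several comparisons. Each runs 5′ to 3′ in the gene's direction, and capitals mark CCAAT, which a match on the other strand spells as ATTGG here, TTTGAA, which such a match spells as TTCAAA, and TTCGAA, which reads alike on both strands. The Cdk1 stretch lies at chr10:69352913-69353032 on the minus strand, Hmgb2 at chr8:57511723-57511842 on the plus strand, and Top2a at chr11:99024190-99024309 on the minus strand. Ube2c lies at chr2:164769809-164769928 (plus), Cdc20 at chr4:118437344-118437463 (minus), Ccnb2 at chr9:70421555-70421674 (minus), Cks2 at chr13:51645112-51645231 (plus) and G2e3 at chr12:51348110-51348229 (plus).
Cdk1: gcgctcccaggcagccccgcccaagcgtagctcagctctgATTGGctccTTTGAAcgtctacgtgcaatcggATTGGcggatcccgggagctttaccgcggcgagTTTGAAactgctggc
Hmgb2: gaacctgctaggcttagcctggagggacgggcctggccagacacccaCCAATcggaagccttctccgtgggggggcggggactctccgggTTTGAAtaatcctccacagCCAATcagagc
Top2a: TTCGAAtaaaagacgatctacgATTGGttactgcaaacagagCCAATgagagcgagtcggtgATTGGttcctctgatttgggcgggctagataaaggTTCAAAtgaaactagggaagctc
Ube2c: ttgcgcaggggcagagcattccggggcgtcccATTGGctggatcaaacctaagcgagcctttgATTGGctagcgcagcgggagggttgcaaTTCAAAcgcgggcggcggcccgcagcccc
Cdc20: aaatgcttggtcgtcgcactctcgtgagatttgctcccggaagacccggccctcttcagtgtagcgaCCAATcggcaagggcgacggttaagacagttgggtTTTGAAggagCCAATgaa
Ccnb2: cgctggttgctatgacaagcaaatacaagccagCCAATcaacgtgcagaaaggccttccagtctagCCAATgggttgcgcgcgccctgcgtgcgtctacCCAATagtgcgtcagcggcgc
Cks2: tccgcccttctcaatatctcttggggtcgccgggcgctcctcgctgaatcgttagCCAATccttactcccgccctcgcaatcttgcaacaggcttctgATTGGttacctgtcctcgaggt
G2e3: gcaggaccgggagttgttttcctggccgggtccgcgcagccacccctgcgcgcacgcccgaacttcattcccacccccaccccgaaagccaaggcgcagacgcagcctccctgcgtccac
The Cdk1 stretch held 2 CCAAT and 2 CHR matches, and Top2a held 3 and 2. Hmgb2, Ube2c and Cdc20 each held 2 CCAAT matches and 1 CHR match. The CHR match of Cdc20 began 18 bases before the start, that of Ube2c 29 and that of Hmgb2 30. Ccnb2 held 3 CCAAT and Cks2 held 2, with no CHR hexamer in the stretch shown. In its whole window Ccnb2 had TTTGAA 167 bases before the start and again just after it, whereas Cks2 had no CHR hexamer there. G2e3 held neither motif in the stretch shown. The gene coordinates used here for G2e3 begin at chr12:51348061, before that stretch, so by them it lies inside the gene.

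The kept cells numbered 6508 in the E11.5 control, 7022 in the E11.5 gof, 6610 in the E14.5 control and 5325 in the E14.5 gof library, and values below are given in this order. Total UMIs per library before filtering ranged from 59594082 to 113821989. The median kept cell held 8172.5, 5652.5, 12896.5 and 14079 UMIs, so the E11.5 gof library was the shallowest. Between 7 and 13 cell barcodes were shared by any pair of libraries. Lmx1a itself was at 31.9, 19.6, 54.9 and 19.8 CPM (counts scaled to a common total over a group of cells), and Ctnnb1, which encodes β-catenin, at 254.2, 214.6, 310.0 and 289.0 CPM. Counts near the 3' end do not check the gof allele, since the labels do not say which part of the gene it alters.

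Over whole libraries the 51 genes together made up 0.713%, 0.643%, 0.583% and 0.640% of all UMIs. The summed share was lower in gof at E11.5, 0.902 times the control, and higher at E14.5, 1.10 times the control. A sum over a library cannot tell fewer cells in G2 and mitosis from less of each transcript per cell, so cells were also classed one by one. Each cell of at least 3000 UMIs was thinned to 3000, and cells with at least 30 UMIs from the 51 genes (1%) are called G2/M-high. This is a range and not a cell type, and 1828, 1757, 806 and 816 cells lay near the limit, with 20 to 40 such UMIs.

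G2/M-high cells were 1421 of 6405 (22.2%, exact 95% Clopper-Pearson interval 21.2 to 23.2) in the E11.5 control and 1311 of 6369 (20.6%, 19.6 to 21.6) in the E11.5 gof library. At E14.5 they were 1140 of 6342 (18.0%, 17.0 to 18.9) in control and 1010 of 5054 (19.98%, 18.9 to 21.1) in gof. Without thinning, 21.5%, 18.9%, 18.2% and 19.2% of cells had at least 1% of their UMIs from the 51 genes. Of gated neurons, some of which carried Eomes, 2.44%, 3.26%, 1.18% and 4.003% were G2/M-high. At E14.5, 2 of 1047 control and 5 of 968 gof neurons with 0 Eomes UMIs were. Outside the non-neural gate the thinned E11.5 shares were nearly equal, 24.2% in control and 24.5% in gof, while without thinning gof stayed below control (23.7% and 22.4%). The summed share there was also still lower in gof, at a log2 ratio of -0.052. Mesenchymal markers summed to 346.9 CPM in the E11.5 control and 833.5 CPM in the E11.5 gof library, and their part in the whole-library difference was not tested beyond leaving these cells out. At E14.5 the 6 neuron markers summed to 1292 CPM in the control and 1021 CPM in the gof library. Stmn2 (572.9 and 384.0 CPM), Mapt, Gap43 and Myt1l were lower in gof, while Nsg2 (153.0 and 164.6 CPM) and Snap25 were higher. Tubb3, a neuron marker outside these 6, was also higher (543.7 and 697.1 CPM). Gated neurons were 1880 of 6610 kept control cells and 1505 of 5325 kept gof cells. The choroid plexus gene Ttr was at 3192 and 647.3 CPM. The part of these genes in the higher E14.5 share of gof was not tested.

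Hmgb2, a chromatin protein of proliferating cells, was the most abundant of the 51 in every library. It was at 1477, 1640.2, 1092 and 1363 CPM and alone gave 20.7%, 25.5%, 18.7% and 21.3% of the UMIs of the 51 genes. Ube2c, the E2 enzyme that works with the anaphase-promoting complex, was at 609.5, 464.5, 264.3 and 359.7 CPM. Both were lowest in the E14.5 control, while Hmgb2 was highest in the E11.5 gof library and Ube2c in the E11.5 control. Top2a, the topoisomerase that untangles sister chromatids, was at 305.9, 266.9, 238.6 and 284.6 CPM. Cks2, a small Cdk1-binding protein, was at 327.2, 360.5, 182.5 and 190.9 CPM. Cks2 thus separated the ages, and Top2a did not.

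Anp32e, a histone chaperone, was at 268.1, 221.2, 248.97 and 271.2 CPM. Cenpa, the histone H3 variant of centromeres, was at 327.4, 314.6, 152.3 and 202.0 CPM, higher in both E11.5 libraries than in both E14.5 libraries. The 6 most abundant genes together gave 46.5%, 50.8%, 37.4% and 41.7% of the UMIs of the 51 genes. Among spindle genes the most abundant was Tubb4b, a β-tubulin that is not particular to dividing cells, at 156.8, 119.1, 246.8 and 239.6 CPM. Ect2, which starts cytokinesis, led its role at 53.9, 47.8, 58.1 and 57.0 CPM. At the other end, Gtse1, a regulator of microtubules and p53, stayed below 10 CPM in all 4 libraries (7.27, 8.29, 6.62 and 5.90). CPM here is per UMI and not per length, so these values order each gene across libraries rather than genes against each other. Hmgb2 and Tubb4b belong to families of similar sequence, and the sources used here do not give how shared reads were counted.

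**Figure D1:**
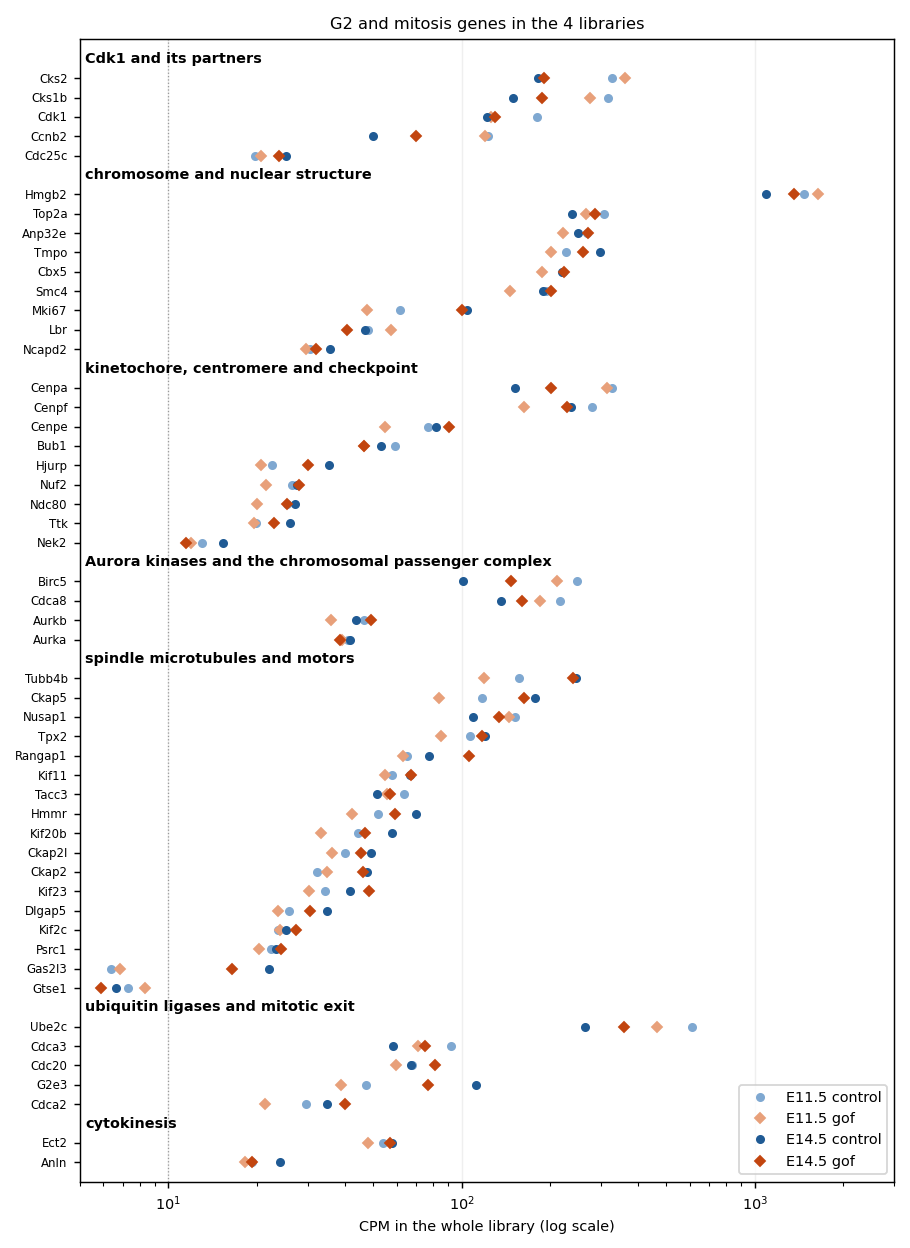
CPM of each of the 51 genes in the whole libraries, on a log axis, grouped by role. Circles are control and diamonds gof, pale for E11.5 and dark for E14.5, and the dotted line is 10 CPM. Hmgb2 stands alone above 1000 CPM, Gtse1 lies below 10 CPM in all 4 libraries, and the Cdk1 partner Ccnb2 lies higher at E11.5 (123.4 and 120.4) than at E14.5 (49.8 and 69.8).

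The genes were sorted by role into Cdk1 and its partners (5), chromosome and nuclear structure (9), kinetochore, centromere and checkpoint (9), Aurora kinases and the chromosomal passenger complex (4), spindle microtubules and motors (17), ubiquitin ligases and mitotic exit (5) and cytokinesis (2). The role sums did not keep the same proportions at the 2 ages. Cdk1 and its partners summed to 969, 901, 529.6 and 602 CPM, and the Aurora group to 551, 473, 323 and 395 CPM. Spindle genes summed to 1008, 866, 1228 and 1236 CPM, so the former groups were higher at E11.5 and the spindle group at E14.5. Its most abundant genes, Tubb4b and then Ckap5, had log2 ratios of E14.5 to E11.5 of 0.65 and 0.60 in control. Nusap1, next in abundance, went the other way (-0.47). In the E14.5 control, Tubb4b was detected in 40.6% of neurons and 33.4% of cells that were not G2/M-high, and Ckap5 in 32.0% and 29.0%.

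A gene counts as higher or lower below if it differed by at least 1.5-fold between libraries, with separate 95% Poisson intervals and at least 10 CPM in either, and log2 ratios use CPM + 1. In the whole E11.5 libraries, 49 of the 51 reached 10 CPM. Of these 0 were higher and 1 lower in gof, while 4.45% of all genes tested were higher and 3.99% lower. The median log2 ratio was -0.19, against -0.11 over all genes, and 6 of the 49 ratios were above 0. The 1 gene was Cenpf, a kinetochore protein of G2 and mitosis, at 279.7 CPM (95% interval 275.8 to 283.7) against 163.4 CPM (159.9 to 167.0) in gof, a log2 ratio of -0.77. In the E14.5 libraries Cenpf was at 235.7 and 229.2 CPM, nearly equal.

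The next lowest ratios at E11.5 were within the limits. Cdk1, the mitotic kinase itself, was at 181.4 and 125.6 CPM (log2 -0.53), and at 122.4 and 129.8 CPM at E14.5. Ckap5, which lengthens microtubules, was at 117.0 and 83.5 CPM (log2 -0.48), and at 178.2 and 163.7 CPM at E14.5. The E11.5 control thus held the most Cdk1 of the 4 libraries, and the E11.5 gof library the least Ckap5. The highest ratios at E11.5 were those of Lbr, the lamin B receptor of the nuclear envelope (48.0 and 57.3 CPM, log2 0.25), Hmgb2 (0.15) and Cks2 (0.14), all within the limits.

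In the whole E14.5 libraries, 0 of 50 genes were higher and 0 lower, against 3.03% and 8.1% of all genes tested. By the same rule 26 of the 50 ratios were above 0, with a median of 0.01 against -0.09 over all genes. Counts of genes do not follow the sums here, since the abundant Hmgb2 (log2 0.32) and Ube2c (0.44) were both on the higher side. The highest ratios belonged to Birc5, or survivin, of the chromosomal passenger complex (101.4 and 147.1 CPM, log2 0.53), the B-type cyclin Ccnb2 (49.8 and 69.8 CPM, 0.48) and Rangap1, the Ran GTPase activator found at kinetochores (77.7 and 106.2 CPM, 0.45). The lowest was G2e3, a ubiquitin ligase named for its G2 expression, at 112.0 CPM (110.0 to 114.1) and 76.9 CPM (75.01 to 78.8), log2 -0.54. Nek2, a centrosome kinase, was at 15.4 and 11.45 CPM, and Gas2l3, which links actin and microtubules, at 22.0 and 16.5 CPM. All 6 stayed within the limits.

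From lists of the same pathway that do not overlap the 51 genes, other G2 and mitosis genes behaved alike in count at the whole-library level. At E11.5, 0 of 50 were higher and 1 lower, the chromatin organiser Ctcf (154.8 and 99.3 CPM). The condensin subunit Ncapd3 was the next lowest (39.6 and 27.3 CPM), and securin, Pttg1 (155.3 and 213.6 CPM), and separase, Espl1 (9.96 and 13.5 CPM), were the highest, all 3 within the limits. At E14.5, 2 of 50 were higher and 0 lower: the kinetochore subunit Spc24 (57.0 and 111.2 CPM) and Incenp, the scaffold of the passenger complex (50.6 and 76.6 CPM). The spindle gene Aspm (46.5 and 33.5 CPM) and the kinesin Kif20a (25.7 and 18.8 CPM) were lowest, within the limits. Of 43 S phase genes, 0 were higher and 1 lower at E11.5, and 1 higher and 0 lower at E14.5.

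Cells with at least 2 tdTomato UMIs numbered 557, 298, 1113 and 1046, and are called tdTomato-positive. Those with 0 UMIs numbered 5244, 6053, 4580 and 3530, and 0 UMIs do not show that Cre never acted in a cell. tdTomato was counted without thinning, so cells of greater depth more readily reach 2 UMIs. The part of depth in the differences by tdTomato status or between ages was not tested. In tdTomato-positive cells the 51 genes made up 0.788%, 0.775%, 0.464% and 0.518% of UMIs. G2/M-high cells were 160 of 553 (28.9%, 25.2 to 32.9), 83 of 279 (29.7%, 24.4 to 35.5), 129 of 1110 (11.6%, 9.79 to 13.7) and 144 of 1039 (13.9%, 11.8 to 16.1). The E14.5 values were well below the E11.5 values in both genotypes, and within each age the intervals of control and gof overlapped. Markers of neurons summed to 88.9, 154.6, 1692 and 1077 CPM in the same cells, and their part in the age difference was not tested.

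In tdTomato-negative cells the summed share was 0.69997%, 0.630%, 0.619% and 0.666%, and 21.4%, 20.1%, 19.7% and 20.7% of cells were G2/M-high. In these cells 0 genes were higher and 1 lower in gof at E11.5, Cenpf, of 49 (4.33% and 3.79% of all genes), and 0 were higher and 0 lower at E14.5 of 50 (2.1% and 7.33%). Within the E11.5 control library, tdTomato-positive cells had 1 gene higher than tdTomato-negative cells and 0 lower, of 50 (6.13% and 2.56% of all genes). In the E11.5 gof library 3 were higher (Cenpf, the cytokinesis kinesin Kif23 and Gas2l3) and 0 lower (9.5% and 4.15%), and all 50 ratios were above 0. In the E14.5 control library 0 were higher and 14 lower (13.6% and 5.3%), with a median log2 ratio of -0.48. Among the 14 were Ube2c (169.5 CPM in positive and 296.6 in negative cells), Hmgb2 (743.9 and 1201), Cenpa, Birc5, Aurka, Aurkb and Cdc20. In the E14.5 gof library 2 were lower (Aurkb and the checkpoint kinase Ttk) and 0 higher (12% and 5.76%), with a median of -0.44, so the medians were close while fewer genes passed the limits.

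Between genotypes, tdTomato-positive cells at E11.5 had 1 gene higher in gof, Lbr (39.6 and 63.8 CPM, log2 0.67), and 0 lower of 50, against 4.85% and 5.34% of all genes. Cenpf (346.7 and 237.4 CPM), Mki67, the Ki-67 proliferation marker (74.1 and 52.6 CPM), and Cdk1 (206.8 and 152.7 CPM) had the lowest ratios. The microtubule protein Ckap2 (33.4 and 43.7 CPM) and the kinesin Kif2c (26.2 and 31.5 CPM) followed Lbr. None of these 5 passed the limits.

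At E14.5, tdTomato-positive cells had 2 genes higher and 2 lower in gof of 50, against 6.8% and 16.6% of all genes. Ube2c was at 169.5 CPM (interval 163.9 to 175.3) in control cells and 274.7 CPM (interval 267.5 to 282.1) in gof cells, log2 0.69. Birc5 was at 68.8 and 109.4 CPM, log2 0.66. Gas2l3 was at 26.6 and 12.9 CPM, log2 -0.99, and G2e3 at 86.2 and 56.6 CPM, log2 -0.60. The next in order, Ccnb2 (39.6 and 59.3 CPM) and Nek2 (15.1 and 9.94 CPM), fell short of the limits. The same 2 genes, Gas2l3 and G2e3, were lower in the E14.5 gof cells of the hem, choroid plexus and non-neural gates below.

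Cells were then gated by marker genes into non-neural, neuron, intermediate progenitor, choroid plexus, hem and pallial progenitor cells, each cell taking the first gate it met. Hem cells numbered 816, 587, 468 and 226, choroid plexus cells 393, 231, 271 and 196, pallial progenitors 1321, 888, 2321 and 1907, and intermediate progenitors 129, 141, 921 and 835. No gate took 2779, 3504, 576 and 498 cells. The markers themselves differed between the genotypes at E14.5, so the gated cells were not alike. The hem gene Wnt3a was at 82.4 CPM in control hem cells and 19.5 CPM in gof hem cells, and the choroid plexus gene Ttr at 40070 and 10379 CPM in choroid plexus cells.

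In the hem gate the 51 genes made up 0.778%, 0.786%, 0.736% and 0.642% of UMIs. G2/M-high hem cells were 30.5% (27.4 to 33.8), 29.1% (25.4 to 33.1), 22.8% (19.0 to 26.9) and 19.2% (14.3 to 24.97). At E11.5, 0 genes were higher and 0 lower in gof of 50 (3.79% and 4.18% of all genes). At E14.5, 0 were higher and 12 lower of 51 (7.71% and 18.7%): Ncapd2, Mki67, Tmpo, Hjurp, Tpx2, Kif11, Kif20b, Dlgap5, Psrc1, Gas2l3, G2e3 and Anln. The share of the 51 genes that was lower, 12 of 51, is near that of all genes. Mki67 was at 150.2 and 99.7 CPM and Gas2l3 at 36.9 and 15.4 CPM, while Top2a was at 310.1 and 270.7 CPM and Ube2c at 318.4 and 366.6 CPM. With 3 markers required in place of 2, 3 genes were higher and 1 lower, and the log2 ratio of the summed share turned from -0.20 to 0.25, so the E14.5 hem difference has no stable direction.

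In the choroid plexus gate the summed share was 0.786%, 0.768%, 0.630% and 0.565%, and 30.7%, 28.4%, 19.1% and 13.3% of cells were G2/M-high. The intervals of the last pair, 14.6 to 24.3 and 8.90 to 18.9, overlapped. At E11.5, 0 genes were higher and 0 lower of 51 (3.61% and 4.27% of all genes). At E14.5, 1 was higher, Ube2c (185.1 and 309.6 CPM), and 12 were lower of 50 (9.2% and 21.2%), among them Cdk1 (211.3 and 127.5 CPM), the lamina protein Tmpo (332.3 and 215.0 CPM) and G2e3 (81.2 and 37.3 CPM). When the gates were read from thinned cells, 21 were higher and 2 lower and the log2 ratio of the share turned from -0.16 to 0.46, so this direction is also not stable.

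Pallial progenitors held the highest levels at E14.5. The 51 genes made up 0.775%, 0.802%, 0.936% and 0.938% of their UMIs. G2/M-high cells were 352 of 1313 (26.8%, 24.4 to 29.3), 252 of 853 (29.5%, 26.5 to 32.7), 763 of 2291 (33.3%, 31.4 to 35.3) and 628 of 1874 (33.5%, 31.4 to 35.7). At each age the intervals of control and gof overlapped. At E11.5, 0 genes were higher and 0 lower of 50 (5% and 5.74% of all genes). At E14.5, 0 were higher and 2 lower of 51 (2.56% and 8.32%): Hmmr, a spindle assembly factor (123.1 and 80.8 CPM), and G2e3 (131.0 and 82.7 CPM).

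**Figure D2:**
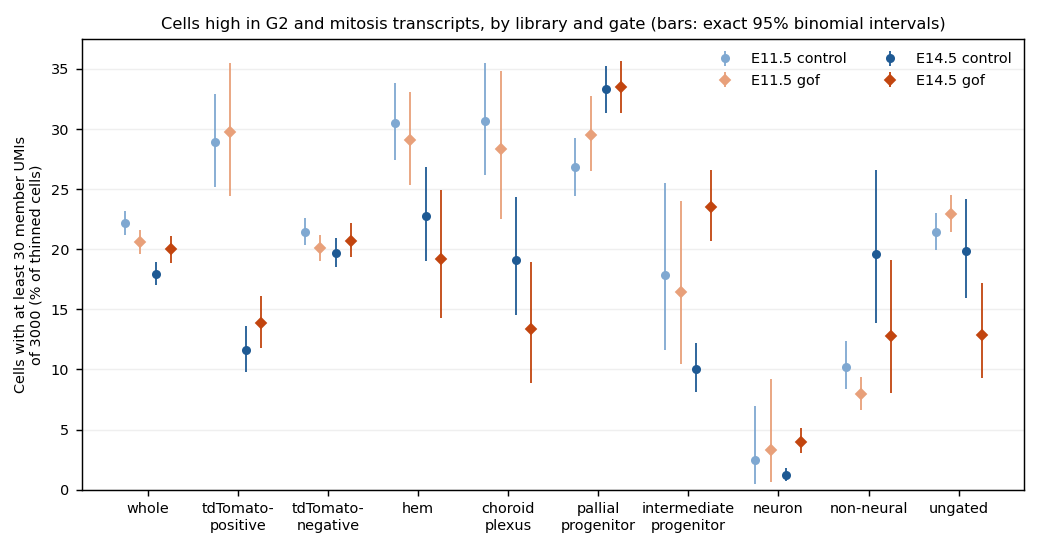
Percentage of thinned cells with at least 30 of 3000 UMIs from the 51 genes, for each library within the whole library, tdTomato classes and marker gates. Bars are exact 95% binomial intervals and cover counting error only. Intermediate progenitors at E14.5 are at 10.0% in control and 23.6% in gof with separate intervals, while pallial progenitors are at 33.3% and 33.5%.

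The intermediate progenitor gate (Eomes at least 2 UMIs, Trp73 at 0) differed between the E14.5 libraries in 1 direction. The 51 genes made up 0.449% of UMIs (0.446 to 0.453) in control and 0.731% (0.727 to 0.736) in gof, 1.63 times as much. G2/M-high cells were 92 of 917 (10.0%, 8.16 to 12.2) and 195 of 828 (23.6%, 20.7 to 26.6). At E11.5 the gate held few cells, 129 and 141, with 17.8% (11.7 to 25.5) and 16.4% (10.5 to 24.0) of cells G2/M-high. Median depth at E14.5 was close, 12215 and 12695 UMIs.

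At E14.5, 31 of 50 genes were higher in gof intermediate progenitors and 0 lower, where 4.21% of all genes were higher and 11.7% lower. In all, 49 of the 50 ratios were above 0, with a median log2 ratio of 0.67 against -0.09 over all genes. Cdk1 and its partners were higher in 5 of 5 cases. Cdk1 was at 79.8 CPM (interval 75.2 to 84.6) in control cells and 137.6 CPM (interval 131.3 to 144.2) in gof cells, log2 0.78, and Ccnb2 at 34.0 and 75.7 CPM, log2 1.13. Cks1b (130.2 and 215.4 CPM), Cks2 (134.9 and 225.1 CPM) and the Cdk1-activating phosphatase Cdc25c (17.4 and 28.5 CPM) went the same way.

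Mitotic exit genes had the highest ratios, with 4 of 5 higher and a median log2 ratio of 1.02. Ube2c was at 196.7 CPM (interval 189.5 to 204.1) in control cells and 440.2 CPM (interval 428.8 to 451.7) in gof cells, log2 1.16, and Cdc20, which activates the anaphase-promoting complex, at 43.2 and 96.0 CPM, log2 1.14. Cdca3 (39.7 and 81.3 CPM) and Cdca2, which targets a phosphatase to chromosomes (27.2 and 52.2 CPM), were also higher. G2e3 was the only one of the 50 with a ratio below 0, at 139.9 and 110.0 CPM, log2 -0.34, within the limits.

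All 4 genes of the Aurora group were higher. Birc5 was at 71.3 CPM (interval 67.0 to 75.8) in control cells and 158.6 CPM (interval 151.8 to 165.6) in gof cells, log2 1.14. Cdca8, or borealin, was at 88.5 and 168.5 CPM, Aurkb at 29.9 and 55.0 CPM, and Aurka, the centrosome kinase, at 28.0 and 50.2 CPM. Of spindle genes 11 of 16 were higher, led by Rangap1 (56.6 and 117.8 CPM) and the microtubule bundler Nusap1 (79.4 and 164.0 CPM), both log2 1.04. Kinetochore and centromere genes were higher in 4 of 9 cases, namely Cenpa (111.2 and 230.3 CPM), the kinesin Cenpe (64.1 and 122.4 CPM), Cenpf (144.1 and 227.4 CPM) and Nuf2 (18.4 and 30.6 CPM).

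Chromosome and nuclear structure genes were higher in 3 of 9 cases: Top2a (169.6 and 340.0 CPM, log2 0.9996), Hmgb2 (864.2 and 1583 CPM, log2 0.87) and the condensin subunit Smc4 (150.2 and 226.0 CPM, log2 0.59). Mki67 was at 77.3 and 107.3 CPM, log2 0.47, within the limits, and the nuclear envelope genes Lbr (39.8 and 44.3 CPM) and Tmpo (261.1 and 290.3 CPM) were nearly equal. Neither cytokinesis gene passed the limits. At E14.5 pallial progenitors held more of most of these transcripts and differed less: Ube2c was at 477.9 and 530.9 CPM there, Top2a at 415.1 and 437.7 CPM, Cdk1 at 202.4 and 197.9 CPM, and Cdc20 at 121.3 and 120.3 CPM. Whether the ratio in intermediate progenitors differs from that in pallial progenitors has no test, with 1 library each.

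**Figure D3:**
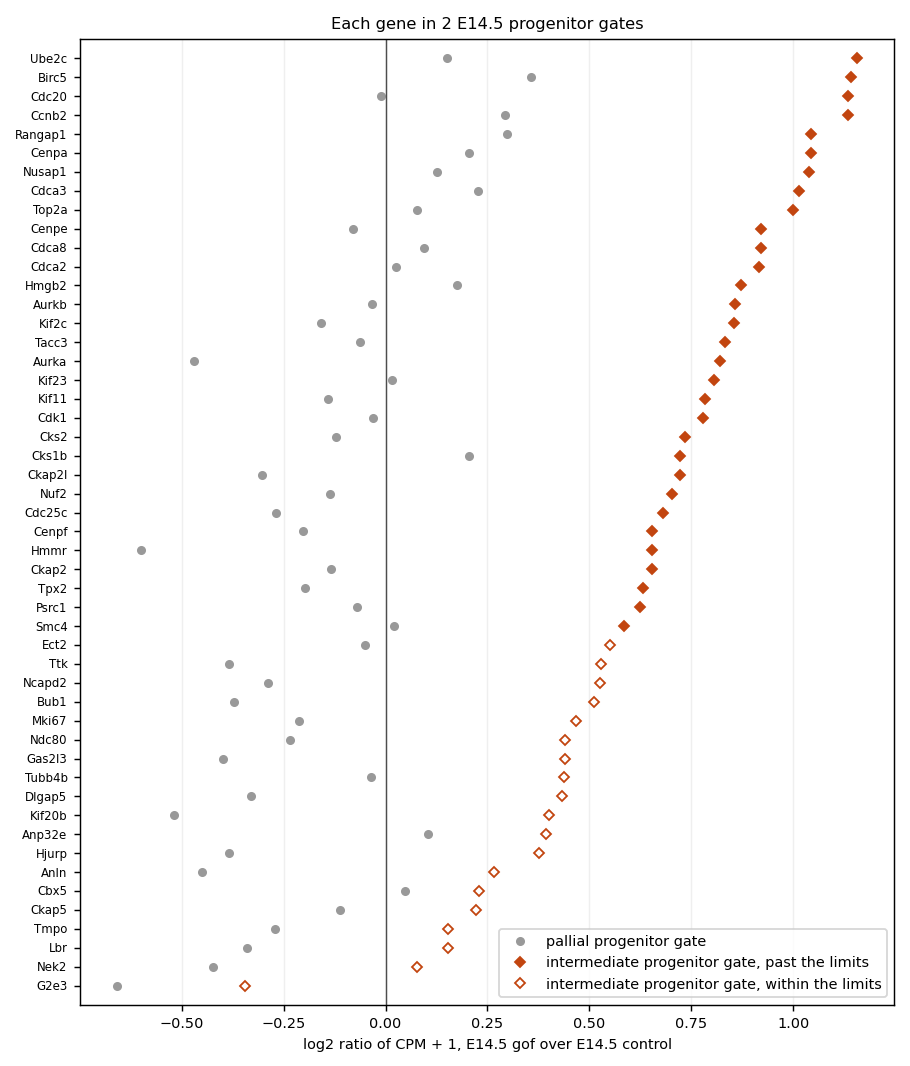
Log2 ratio of CPM + 1, E14.5 gof over E14.5 control, for each gene within the pallial progenitor gate (grey circles) and the intermediate progenitor gate (diamonds, filled where past the limits). In intermediate progenitors 31 diamonds are filled and 49 of 50 lie above 0, whereas the grey circles lie on both sides of 0; G2e3 is lowest in both gates.

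More of the gof cells were rich in these transcripts. Of the E14.5 intermediate progenitors, 41.7% in control and 26.3% in gof held 3 to 5 of 3000 UMIs from the 51 genes, and 0.545% and 1.81% held 80 or more. The median cell had 5 and 7 such UMIs, against 17 and 19 in pallial progenitors. G2/M-high cells of all kinds were also compared, of which 66.9% in control and 62.2% in gof were pallial progenitors at E14.5. There 0 genes were higher and 1 lower in gof of 51 at E14.5 (3.46% and 8.57% of all genes), the cytokinesis scaffold Anln (76.9 and 50.4 CPM). At E11.5 the counts were 0 and 1 (3.16% and 3.24%), the 1 being Cenpf (659.5 and 402.8 CPM). Since these cells were chosen on the sum of the 51 genes, like levels follow in part from the choice and their levels are a description. They cannot tell more cells from more transcript per cell. Intermediate progenitors made up 8.07% of all G2/M-high cells in the E14.5 control and 19.3% in the E14.5 gof library.

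**Figure D4:**
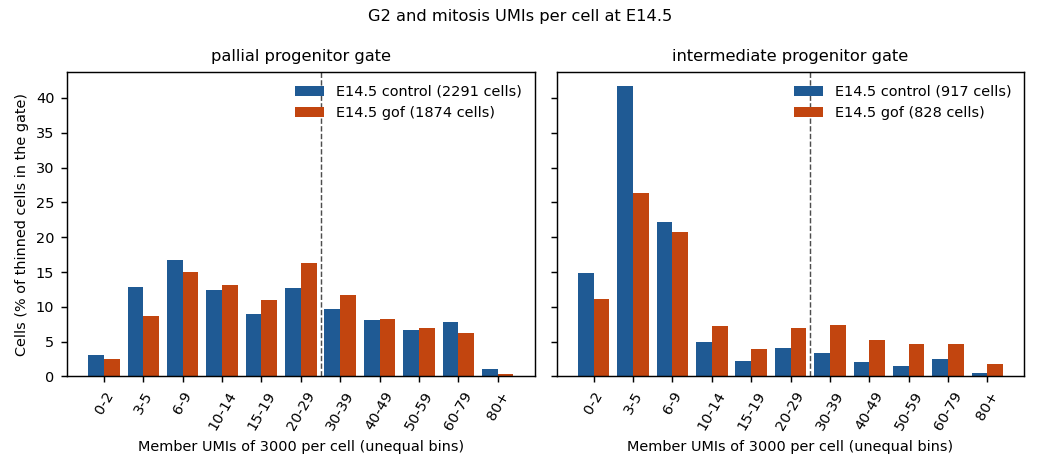
Distribution of UMIs from the 51 genes per cell, of 3000, in E14.5 pallial and intermediate progenitors (bars are % of thinned cells in the gate, bins are unequal, the dashed line is the limit of 30). In intermediate progenitors the control bar at 3 to 5 UMIs is 41.7% and the gof bar 26.3%, and every gof bar from 10 UMIs upwards is the higher of the pair.

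The E14.5 difference was as large in tdTomato-negative intermediate progenitors. There 69 of 736 control cells (9.38%) and 141 of 641 gof cells (22.0%) were G2/M-high. Of 50 genes 35 were higher and 0 lower (4.31% and 11.7% of all genes), with Ube2c at 185.7 and 442.9 CPM. At E11.5, tdTomato-negative intermediate progenitors had 0 genes higher and 6 lower of 50 (3.31% and 5.56% of all genes). The tdTomato-positive ones gave 9 of 73 (12.3%) and 17 of 58 (29.3%).

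Other markers of the same cells moved too. In E14.5 intermediate progenitors Eomes was at 518 CPM in control cells and 476 CPM in gof cells, the neurogenic factor Neurog2 at 677 and 509 CPM, and Insm1, a factor of delaminating progenitors, at 136 and 307 CPM. The hem genes Wnt5a (90.5 and 17.7 CPM) and Lmx1a (22.3 and 4.005 CPM) were lower in gof, and their part in the difference was not tested. The 6 neuron markers summed to 320.2 and 338.6 CPM, nearly equal, with 0 of the 6 at 0. The neuron gate uses these same 6 and takes its cells first, so their sum here is limited by the gating. Of neuron markers that no gate uses, Tubb3 was at 410.1 and 541.9 CPM and Dcx at 216.7 and 213.0 CPM. Sums of 5 lists of non-neural markers were between 2.17 and 18.5 CPM in control and between 2.39 and 6.01 CPM in gof.

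Split by Eomes UMIs, a setting chosen after the data were seen, the difference in percentage points widened with the Eomes count. The ratio of gof to control did not widen steadily and was largest at 5 to 9 UMIs. At 2 to 4 UMIs, 28 of 281 control cells (9.96%) and 34 of 277 gof cells (12.3%) were G2/M-high. At 5 to 9 UMIs the counts were 19 of 354 (5.37%) and 67 of 347 (19.3%), and at 10 or more 45 of 282 (15.96%) and 94 of 204 (46.1%). Eomes was counted without thinning, so cells of greater depth fall in the upper classes. In the top class the median cell held 14533 UMIs in control and 17626.5 in gof.

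G2/M-high cells were also a larger share in gof in the neuron gate, which takes cells with neuron markers before Eomes is read. At E14.5, 22 of 1864 control neurons (1.18%, 0.741 to 1.78) and 59 of 1474 gof neurons (4.003%, 3.06 to 5.13) were G2/M-high. Of 42 genes, 29 were higher and 0 lower (4.41% and 6.84% of all genes). Genes were counted if either library reached 10 CPM, so a gene below 10 CPM in control could enter through gof alone. Such a gene adds to the 42 and can add to the 29, but cannot count as lower. The same rule gave the percentages of all genes. At E11.5 the gate held 125 control and 98 gof neurons, with 1 gene higher (Cks2) and 1 lower (G2e3) of 35 (1.72% and 2.33%). In the E14.5 neurons Birc5 was at 13.8 and 43.3 CPM, Ube2c at 42.9 and 128.6 CPM and Top2a at 33.5 and 91.5 CPM. Most of these cells carried Eomes: 52 of 353 gof neurons with at least 2 Eomes UMIs were G2/M-high and 19 of 599 in control, against 5 of 968 and 2 of 1047 with 0 Eomes UMIs. Doublets were removed by score only, and the part of any that remain, or of free RNA, was not tested.

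**Figure D5:**
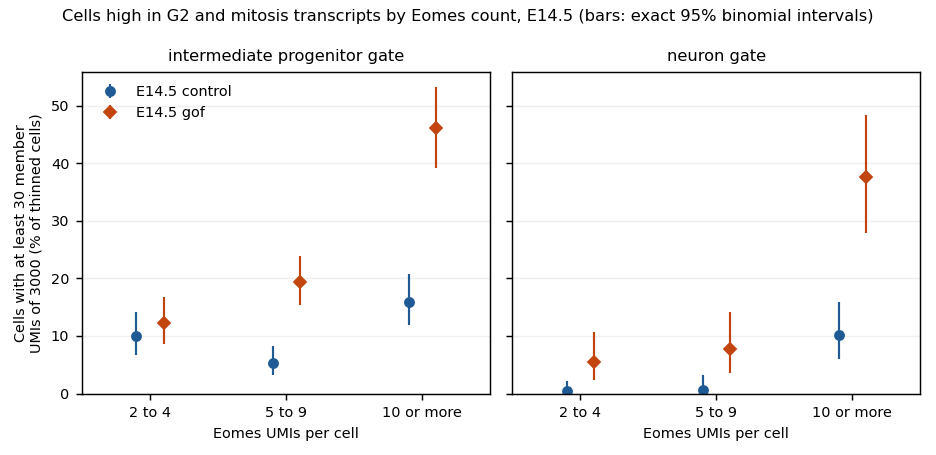
Percentage of thinned E14.5 cells with at least 30 of 3000 UMIs from the 51 genes, by Eomes UMIs per cell, in the intermediate progenitor and neuron gates, with exact 95% binomial intervals. At 10 or more Eomes UMIs intermediate progenitors are at 15.96% in control and 46.1% in gof, and neurons at 10.2% and 37.6%.

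Related lists, also chosen with earlier results of these data known, moved in the same E14.5 intermediate progenitors. Of 50 other G2 and mitosis genes 26 were higher and 0 lower, with a median log2 ratio of 0.60, led by Spc24 (39.6 and 118.1 CPM) and Incenp (38.3 and 89.3 CPM). Of 43 S phase genes 16 were higher and 0 lower, with a median of 0.47. The background for these counts is the same 4.21% and 11.7% of all genes. At E11.5 both lists lay on the other side, as did the 51 genes: 1 higher and 7 lower of 48 other G2 and mitosis genes, and 0 higher and 17 lower of 39 S phase genes, with medians of -0.45 and -0.93 (3.9% and 7.48% of all genes). Among the 17 were Mcm5, a subunit of the replicative helicase (46.1 and 13.6 CPM), and the sliding clamp Pcna (153.2 and 73.6 CPM).

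Cells outside every gate went the other way at E14.5. In these 576 control and 498 gof cells the 51 genes made up 0.633% and 0.432% of UMIs, and 19.8% (15.97 to 24.2) and 12.9% (9.32 to 17.2) of cells were G2/M-high. Of 50 genes 0 were higher and 36 lower in gof (9.21% and 16.1% of all genes). The median ungated cell held 6604 and 7243 UMIs. Markers differed within them, with the pallial gene Lhx2 at 567 and 385 CPM and Gad1, a gene of inhibitory neurons, at 3.56 and 38.9 CPM, and their part in the difference was not tested. At E11.5 ungated cells had 0 genes higher and 1 lower, Cenpf, of 49 (4.25% and 3.07%).

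In non-neural cells, mostly mesenchymal by their markers at E11.5, the summed share was 0.601%, 0.453%, 0.534% and 0.556%. In whole libraries the mesenchymal gene Col3a1 was at 113.3, 344.5, 13.0 and 55.4 CPM. The endothelial gene Kdr was at 7.44, 19.1, 14.8 and 11.2 CPM. The makeup of this gate may thus differ between the libraries, and its part was not tested. At E11.5, 0 genes were higher and 13 lower in gof of 48 (4.02% and 10.8% of all genes), among them Cenpf (204.0 and 88.5 CPM), while Top2a was at 239.1 and 204.7 CPM. At E14.5, 4 were higher (Ccnb2, Cenpa, Birc5 and Cdc20) and 2 lower (Gas2l3 and G2e3) of 50 (6.92% and 17.3%). Cenpf was thus below the limit in the E11.5 gof library in the non-neural, ungated and intermediate progenitor cells.

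At E11.5 the intermediate progenitor gate gave 0 genes higher and 10 lower in gof of 48 (3.9% and 7.48% of all genes), with a median log2 ratio of -0.47. Top2a was at 254.3 CPM (228.1 to 282.8) and 111.7 CPM (88.8 to 138.6), Cdk1 at 136.8 and 66.7 CPM and Cenpf at 216.4 and 85.8 CPM, whereas Ube2c (499.7 and 551.7 CPM) and Hmgb2 (1290 and 1398 CPM) were within the limits on the other side. These sums come from 129 and 141 cells, in which neuron markers summed to 998.7 and 1831 CPM. The direction of the summed share, log2 -0.24, turned under several settings, to 0.28 with gates read after thinning and to 0.78 with at least 5 Eomes UMIs. The latter rests on 7 gof cells, all with 5 to 9 Eomes UMIs. In control it rests on 16 cells with 5 to 9 and 1 with at least 10.

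Between ages, with 1 library each and different depths, 6 of 50 genes were higher and 8 lower at E14.5 than at E11.5 in control, while 51.7% of all genes were higher and 7.78% lower. The median log2 ratio of the 50 was 0.08, against 0.62 over all genes. Gas2l3 (6.37 and 22.0 CPM, log2 1.64), G2e3 (47.3 and 112.0 CPM, 1.23) and Mki67 (61.5 and 104.8 CPM, 0.76) were among the higher, with Hjurp, Ckap5 and Tubb4b. Ccnb2 (log2 -1.29), Birc5 (-1.28), Ube2c (-1.20) and Cenpa (-1.10) led the lower, with Cks1b, Cks2, Cdca8 and Cdca3. In gof, 9 were higher and 3 lower of 50 (50.5% and 8.86% of all genes).

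Within pallial progenitors alone, 27 of 51 genes were higher at E14.5 in control and 0 lower (50.5% and 5.9% of all genes). The median log2 ratio, 0.60, was close to the 0.59 of all genes. In gof 22 were higher and 1 lower (47.1% and 7.94%), with medians of 0.53 and 0.54. Mki67 went from 64.1 to 175.4 CPM in control and from 54.8 to 151.2 CPM in gof pallial progenitors. Ratios between ages followed transcript length over all genes: in whole control libraries Spearman's rho between log2 ratio and the length of the longest coding transcript was 0.50 over 9750 genes and 0.44 over 50 of the 51. All genes share the same libraries and depths, so this is a description, and the part of length in the age differences was not tested. For gof against control at E14.5 rho was -0.24 over all genes in the whole libraries and -0.45 over the 50, but -0.21 and -0.22 with the median coding transcript. In intermediate progenitors it was -0.22 and -0.44 with the longest, and -0.19 and -0.11 with the median transcript, so a steeper relation in these genes rests on the longest transcript.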

How the data were processed

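The authors deposited, for each of the 4 libraries, a raw count matrix (UMIs of every gene in every cell barcode), which the submitters' processing notes tie to Cell Ranger 7.1.0 and mm10. The annotation's version is not given in the sources used. Groups came from the labels, whose titles shorten the ages to E11 and E14; E11.5 and E14.5 are from the series' design text. Barcodes with fewer than 1000 genes or over 10% mitochondrial UMIs were dropped (616, 1084, 775 and 691), and the highest Scrublet scores were removed at 0.8% per 1000 barcodes (459, 602, 492 and 314). Ambient RNA was not removed.

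Counts were summed over cells and scaled to CPM, with exact Poisson intervals, and shares of cells have exact Clopper-Pearson intervals, both at 95%. PCR duplicates are collapsed by UMI, and intervals cover counting error only. Cells below 3000 UMIs (103, 653, 268 and 271) were left out of thinned shares. Depth per library is given above.

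Gates, in order: non-neural, at least 2 genes with at least 2 UMIs in 1 of the mesenchymal, endothelial, mural, microglial or erythroid lists; neuron, at least 3 of Stmn2, Mapt, Gap43, Nsg2, Myt1l and Snap25 with at least 2 UMIs; intermediate progenitor, Eomes at least 2 and Trp73 at 0; choroid plexus, at least 2 of Kcne2, Kl, Folr1, Htr2c, Clic6, Kcnj13, Enpp2, Slc4a5, Aqp1 and Prlr; hem, at least 2 of Lmx1a, Wnt3a, Wnt2b, Wnt5a, Bmp4 and Bmp6; pallial progenitor, at least 2 of Pax6, Emx1, Emx2, Lhx2 and Dmrta2 and fewer than 2 UMIs over Dlx1, Dlx2, Gad1 and Gad2. The last 3 gates count a marker from 1 UMI. The pallial gate, and with it the set of ungated cells, also used 1 gene that is not reported here, nor is a setting that used it.

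Genes with full values are the 3 highest and 3 lowest log2 ratios of each whole-library and tdTomato-positive comparison, the 6 most abundant, and the most abundant of each role. Genes named in the gates were chosen after their values were seen. The genes and lists were chosen with earlier results of these data known. The computation was tested on simulated data. Alternatives are given in the closing section. Python 3.11.15, numpy 2.4.6, scipy 1.17.1, pandas 2.3.3, scanpy 1.11.5 and matplotlib 3.10.9 were used.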

Additional observations from a re-analysis of the deposited data

Results flagged for a closer look

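The direction of gof against control differed between the ages in the results that follow. These differences have no test, since each age and genotype is 1 library. For the summed share of UMIs from the 51 genes in whole libraries, the log2 ratio was -0.15 at the earlier stage, E11.5, and 0.14 at E14.5. The E11.5 ratio turned to 0.020 with the stricter cell filter and was -0.052 outside the non-neural gate.

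In intermediate progenitor cells the log2 ratio of the summed share was -0.24 at the earlier stage and 0.70 at the later. The gated cells of the ages were not alike. In control and gof, Stmn2 was at 827 and 1532 CPM at E11.5 and at 19.4 and 20.6 CPM at E14.5. Tubb3 was at 753 and 992 CPM, then at 410 and 542 CPM, whereas Nsg2 and Dcx were lower at E11.5. The part of this in the opposite directions was not tested. In this gate 7 genes passed the limits in opposite directions at the ages. Cdk1 had log2 ratios of -1.02 and 0.78, Top2a of -1.18 and 1, Cenpf of -1.32 and 0.65, and Cenpe of -0.87 and 0.92. Tacc3, a spindle protein, had -1.33 and 0.83, Cdca3 -1.26 and 1.02, and Cdca2 -1.98 and 0.92. The E11.5 side rests on 129 control and 141 gof cells, and for the share, Cenpf, Cenpe and Tacc3 it turned under at least 1 other setting.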

How the results depend on the processing

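No paired analysis was possible because each group is 1 library, and for the same reason no replicate could be left out. In E14.5 intermediate progenitors, 24 to 40 of the 51 genes were higher in gof and 0 lower under 14 settings, with a log2 share ratio of 0.61 to 0.95 under 11 and a G2/M-high difference of 3.35 to 19.2 percentage points under 10. Of the main values under other settings, 353 kept their size and direction, 142 moved and 13 reversed; of log2 ratios of single genes, 4533, 559 and 8. For values that moved or reversed the cause was not tested.

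Values are gof over control, or gof minus control for shares of cells, and counts are genes higher or lower in gof. With median-of-ratios scaling, counts were 1 higher (whole libraries E14.5), 7 higher (tdTomato-positive cells E14.5), 1 lower (tdTomato-positive cells E14.5), 2 lower (hem E14.5), 6 lower (choroid plexus E14.5) and 0 lower (pallial E14.5). With CPM taken without mitochondrial, ribosomal and haemoglobin genes, log2 share ratios were -0.11 (whole libraries E11.5), 0.18 (whole libraries E14.5), 0.0093 (tdTomato-positive cells E11.5), 0.22 (tdTomato-positive cells E14.5), -0.14 (hem E14.5), -0.090 (choroid plexus E14.5), 0.053 (pallial E14.5) and 0.74 (intermediate E14.5). Counts were 5 higher (tdTomato-positive cells E14.5), 1 lower (tdTomato-positive cells E14.5) and 1 lower (pallial E14.5). With a minimum of 50 CPM, counts were 1 lower (tdTomato-positive cells E14.5), 6 lower (hem E14.5) and 7 lower (choroid plexus E14.5). With a pseudocount of 5 CPM, counts were 1 lower (tdTomato-positive cells E14.5) and 1 lower (pallial E14.5). With the stricter cell filter (2000 genes or more, a mitochondrial share of 5% or less), log2 share ratios were 0.020 (whole libraries E11.5), 0.042 (tdTomato-positive cells E11.5), 0.069 (hem E11.5), 0.16 (pallial E11.5) and 0.16 (intermediate E11.5), and G2/M-high differences in percentage points were 5.01 (whole libraries E11.5), 11.2 (pallial E11.5) and 10.3 (intermediate E11.5). Counts were 0 lower (whole libraries E11.5), 1 lower (tdTomato-positive cells E14.5), 1 higher (hem E11.5), 1 lower (choroid plexus E11.5), 2 higher (pallial E11.5), 4 higher (intermediate E11.5) and 2 lower (intermediate E11.5). Without doublet removal, log2 share ratios were -0.068 (tdTomato-positive cells E11.5) and 0.62 (intermediate E14.5). Counts were 1 lower (tdTomato-positive cells E11.5) and 1 lower (tdTomato-positive cells E14.5). With 2 times the doublets removed, log2 share ratios were -0.17 (whole libraries E11.5), 0.15 (whole libraries E14.5), 0.12 (tdTomato-positive cells E14.5), -0.027 (hem E11.5), -0.15 (hem E14.5), -0.071 (choroid plexus E11.5) and 0.87 (intermediate E14.5). Counts were 1 lower (tdTomato-positive cells E11.5) and 1 lower (hem E11.5). With every cell thinned to 3000 UMIs, log2 share ratios were -0.11 (whole libraries E11.5), 0.10 (whole libraries E14.5), -0.11 (tdTomato-positive cells E11.5), 0.046 (tdTomato-positive cells E14.5), -0.019 (hem E11.5), -0.14 (choroid plexus E11.5), -0.41 (choroid plexus E14.5), 0.030 (pallial E11.5), 0.014 (pallial E14.5) and 0.77 (intermediate E14.5). Counts were 1 lower (whole libraries E14.5), 0 higher (tdTomato-positive cells E11.5), 1 lower (hem E11.5), 5 lower (hem E14.5), 1 lower (choroid plexus E11.5), 0 higher (choroid plexus E14.5), 1 lower (pallial E11.5) and 3 lower (intermediate E11.5). With tdTomato at 1 UMI or more, log2 share ratios were -0.095 (tdTomato-positive cells E11.5) and 0.22 (tdTomato-positive cells E14.5). Counts were 1 lower (tdTomato-positive cells E11.5) and 1 lower (tdTomato-positive cells E14.5). With tdTomato at 3 UMIs or more, log2 share ratios were 0.019 (tdTomato-positive cells E11.5) and -0.024 (tdTomato-positive cells E14.5), and G2/M-high differences in percentage points were -0.684 (tdTomato-positive cells E14.5). Counts were 1 lower (tdTomato-positive cells E11.5) and 0 higher (tdTomato-positive cells E14.5). With tdTomato at 1 UMI or more after thinning, log2 share ratios were -0.11 (tdTomato-positive cells E11.5) and 0.14 (tdTomato-positive cells E14.5). Counts were 1 lower (tdTomato-positive cells E11.5). With 3 gate markers required, log2 share ratios were 0.063 (hem E11.5), 0.25 (hem E14.5), 0.0035 (choroid plexus E11.5), -0.020 (choroid plexus E14.5), 0.070 (pallial E11.5), 0.038 (intermediate E11.5) and 0.76 (intermediate E14.5), and G2/M-high differences in percentage points were 3.3 (hem E14.5). Counts were 3 higher (hem E14.5), 1 lower (hem E14.5), 1 lower (choroid plexus E11.5), 2 higher (choroid plexus E14.5), 6 lower (choroid plexus E14.5), 1 higher (pallial E11.5), 1 higher (intermediate E11.5) and 6 lower (intermediate E11.5). With gates read after thinning, log2 share ratios were 0.16 (hem E14.5), 0.19 (choroid plexus E11.5), 0.46 (choroid plexus E14.5), 0.12 (pallial E14.5), 0.28 (intermediate E11.5) and 0.95 (intermediate E14.5), and G2/M-high differences in percentage points were 3.31 (hem E14.5), 15.4 (choroid plexus E11.5) and 1.68 (choroid plexus E14.5). Counts were 4 higher (hem E14.5), 2 lower (hem E14.5), 2 higher (choroid plexus E11.5), 21 higher (choroid plexus E14.5), 2 lower (choroid plexus E14.5), 1 higher (pallial E11.5), 1 lower (pallial E11.5), 0 lower (pallial E14.5), 2 higher (intermediate E11.5) and 0 lower (intermediate E11.5). As the mean over cells, log2 share ratios were -0.16 (whole libraries E11.5), 0.048 (whole libraries E14.5), -0.18 (tdTomato-positive cells E11.5), 0.039 (tdTomato-positive cells E14.5), -0.012 (hem E11.5), -0.16 (choroid plexus E11.5), -0.37 (choroid plexus E14.5), 0.0016 (pallial E11.5), -0.015 (pallial E14.5) and 0.75 (intermediate E14.5). Without the 5 most abundant genes, log2 share ratios were -0.25 (whole libraries E11.5), 0.050 (whole libraries E14.5), -0.12 (tdTomato-positive cells E11.5), 0.027 (tdTomato-positive cells E14.5), -0.12 (hem E11.5), -0.30 (hem E14.5), -0.12 (choroid plexus E11.5), -0.29 (choroid plexus E14.5), -0.081 (pallial E11.5), -0.075 (pallial E14.5), -0.44 (intermediate E11.5) and 0.61 (intermediate E14.5). With a limit of 15 of 3000 UMIs, G2/M-high differences in percentage points were -4.4 (whole libraries E11.5), 4.54 (whole libraries E14.5), -13.6 (choroid plexus E14.5), 5.73 (pallial E14.5) and 18.2 (intermediate E14.5). With a limit of 60 of 3000 UMIs, G2/M-high differences in percentage points were -0.239 (whole libraries E14.5) and 3.35 (intermediate E14.5).

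The next settings were chosen after seeing the data. With Eomes at 5 UMIs or more, log2 share ratios were 0.78 (intermediate E11.5) and 0.88 (intermediate E14.5), and G2/M-high differences in percentage points were 27.7 (intermediate E11.5) and 19.2 (intermediate E14.5). Counts were 9 higher (intermediate E11.5) and 1 lower (intermediate E11.5). The E11.5 values of this setting rest on 7 gof cells, and in control on 16 cells with 5 to 9 Eomes UMIs and 1 with at least 10. Outside the non-neural gate, log2 share ratios were -0.052 (whole libraries E11.5), and G2/M-high differences in percentage points were 0.286 (whole libraries E11.5). With tdTomato at 0 UMIs, log2 share ratios were -0.16 (intermediate E11.5) and 0.75 (intermediate E14.5). Counts were 6 lower (intermediate E11.5).

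For single genes, Psrc1 in hem cells at E14.5, at -0.73, turned to 0.24 with 3 gate markers and 0.11 with gates read after thinning. In E11.5 intermediate progenitors, gates read after thinning turned Mki67 to 0.83, Cenpe to 0.17 and Tacc3 to 0.084, and Eomes at 5 UMIs or more turned Cenpf to 0.14, Cenpe to 0.27 and Ckap5 to 0.53. The E11.5 intermediate progenitors are limited by their number, 129 and 141 cells, and far fewer with Eomes at 5 UMIs or more.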
